A study of Mus musculus with 4 samples.

Results

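Imprinted growth genes, as named here, are a small set of genes that mammals express from only 1 of the 2 parental copies. Several of them affect how much a fetus and its tissues grow. The set described here has 9 members: H19, Meg3, Dlk1, Peg3, Plagl1, Grb10, Mest, Ndn and Sgce. They were picked by symbol, as every probe set (a group of short probes read as 1 value) that the platform annotation gives to that symbol alone. By this rule 8 of the 9 genes had 35 probe sets, of 45037 probe sets and 18193 named genes in all. The only probe set annotated to H19 is annotated to the microRNA gene Mir675 as well and is left out of all counts. It was below the floor defined below on all 4 days, at 27.0 signal units or less.

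RNA came from bone marrow of female C57Bl/6J mice, 12 weeks old, and each of 4 times was measured on 1 array. The day 1 array is marrow at extraction, day 4 is marrow after 3 days of culture with vitamin D3 (10 nM) and 10% serum, and days 5 and 7 are cultures that had also received 20 ng/ml M-CSF and 40 ng/ml RANKL. M-CSF keeps macrophage precursors alive and RANKL turns them into osteoclasts, the cells that resorb bone. The labels call every sample a primary osteoclast, but of 12 osteoclast markers 8 were above the floor on day 1, 11 on day 4 and 12 on days 5 and 7, and Calcr, the calcitonin receptor gene of mature osteoclasts, was at 0.732, 16.5, 95.1 and 398 on days 1, 4, 5 and 7. It is not stated in the labels if 1 culture gave all samples, how many mice were pooled, or which other cells the cultures held. Both cytokines were in the medium of both later samples, so what they did and what time in culture did cannot be told apart. With 1 array per group there is no test, and every difference describes these 4 arrays only.

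Imprinting marks the copy of a gene from the mother or the father by DNA methylation, so that only 1 of them is transcribed. Many genes active on the father's copy, such as Plagl1, Peg3, Mest, Dlk1, Ndn and Sgce, are highly expressed in fetal tissues, while H19, Meg3 and, in most tissues, Grb10 are transcribed from the mother's copy. In bone marrow several of them are known from mesenchymal stromal cells and from blood stem cells. The array measures the RNA of a gene as a whole and does not separate the parental copies.

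Signals are MAS5 units on a linear scale. Values under a floor of 32.4, the median over all probe sets and arrays, were set to it before a difference was taken on the log2 scale. A difference of 2-fold or more counts here as higher or lower, which is a threshold of size and no test. One probe set stands for each gene, that with the greatest average log2 signal over the arrays, and a fold from a day below the floor is a lower bound, written as at least. On at least 1 day 7 of the 8 genes passed the floor; Dlk1 never did. As a yardstick of technical precision, probe sets of the same gene differed by a pooled SD of 0.41 (log2) for day 4 over day 1, 0.29 for day 5 over day 4 and 0.26 for day 7 over day 5. These SDs come from probe sets above the floor on both days of a comparison. They do not hold the variation between arrays or between cultures.

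Because imprinting acts through methylated CG dinucleotides, the sequence around the start of Ndn, Grb10 and Plagl1, 3 of the genes with a higher signal in culture, is shown with that of Dlk1, which was not above the floor. The windows run from 250 bases before to 50 after the annotated start, 5′ to 3′, from RefSeq on build GRCm38.p6, and capitals mark each CG.
Ndn (chr7:62348027-62348326, plus strand): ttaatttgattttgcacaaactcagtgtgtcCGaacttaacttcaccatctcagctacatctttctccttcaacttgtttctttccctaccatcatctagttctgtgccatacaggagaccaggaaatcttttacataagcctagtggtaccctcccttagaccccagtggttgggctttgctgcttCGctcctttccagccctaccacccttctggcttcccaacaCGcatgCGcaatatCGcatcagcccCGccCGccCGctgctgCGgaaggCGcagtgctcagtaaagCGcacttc
Grb10 (chr11:12037371-12037670, minus strand): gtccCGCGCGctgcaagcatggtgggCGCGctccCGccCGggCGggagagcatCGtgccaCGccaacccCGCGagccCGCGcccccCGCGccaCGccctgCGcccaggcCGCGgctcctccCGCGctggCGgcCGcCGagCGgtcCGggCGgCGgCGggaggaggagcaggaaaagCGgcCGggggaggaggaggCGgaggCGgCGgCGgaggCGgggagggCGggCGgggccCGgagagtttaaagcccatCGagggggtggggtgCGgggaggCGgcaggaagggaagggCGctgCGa
Plagl1 (chr10:13090582-13090881, plus strand): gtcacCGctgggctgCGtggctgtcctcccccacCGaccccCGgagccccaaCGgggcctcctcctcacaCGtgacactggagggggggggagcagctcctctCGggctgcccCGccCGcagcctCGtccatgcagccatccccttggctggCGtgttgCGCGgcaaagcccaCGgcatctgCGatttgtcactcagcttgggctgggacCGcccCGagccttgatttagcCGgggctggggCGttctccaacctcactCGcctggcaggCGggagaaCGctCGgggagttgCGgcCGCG
Dlk1 (chr12:109452573-109452872, plus strand): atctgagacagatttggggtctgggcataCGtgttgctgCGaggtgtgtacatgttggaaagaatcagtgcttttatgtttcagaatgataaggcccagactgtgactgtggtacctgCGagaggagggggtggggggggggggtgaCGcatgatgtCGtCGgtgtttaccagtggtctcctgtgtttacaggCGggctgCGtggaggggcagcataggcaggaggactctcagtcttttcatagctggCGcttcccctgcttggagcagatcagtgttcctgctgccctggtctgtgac
The motif searched was CG, which reads the same on both strands. It occurred 11 times in the Ndn window, 45 times in that of Grb10, 26 times in that of Plagl1 and 9 times in that of Dlk1. The RefSeq table held 11 windows for 7 of the 9 genes, and H19 and Sgce had no entry. A second Grb10 window (chr11:12027922-12028221), at another annotated start, held only 9 CG. The other windows not shown held 13 (Peg3), 13 and 1 (Meg3), and 8, 17 and 17 (Mest). Of all 32851 windows of the same length, 94.6% held at least 1 CG, and the median was 7. At least as many CG as in the Grb10 window shown were found in 1.93% of all windows. For the Plagl1 window this was 16.9%, for the Ndn window 41.4% and for the Dlk1 window 45.8%. Methylation was not measured in this study, and these counts describe the letters of the reference only.

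Between day 1 and day 4, 4 of the 8 genes were at least 2-fold higher (Ndn, Grb10, Sgce and Plagl1) and 1 was at least 2-fold lower (Meg3). Over the 12438 genes that passed the floor on at least 1 array, 9.66% were higher and 8.33% lower at that size. The median log2 difference of the 8 genes was 0.80, with Dlk1 at 0 because of the floor. For the 7 that passed the floor on at least 1 array it was 1.32, against 0.03 over all 12438 genes. Taking a gene as the mean of all its probe sets, which brings in those below the floor, left 1 member higher, Ndn at 1.19, with Sgce at 0.95 and Grb10 at 0.71. From day 4 to day 5 no member reached 2-fold in either direction, while 1.92% of all genes were higher and 3.84% lower. From day 5 to day 7, 2 members were at least 2-fold lower, Plagl1 and Grb10, and none was higher. By the mean of the probe sets neither passed 2-fold, and without probe sets that can match transcripts of other genes Grb10 alone did. Over all genes 5.45% were lower and 0.796% higher at this step.

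**Figure D1:**
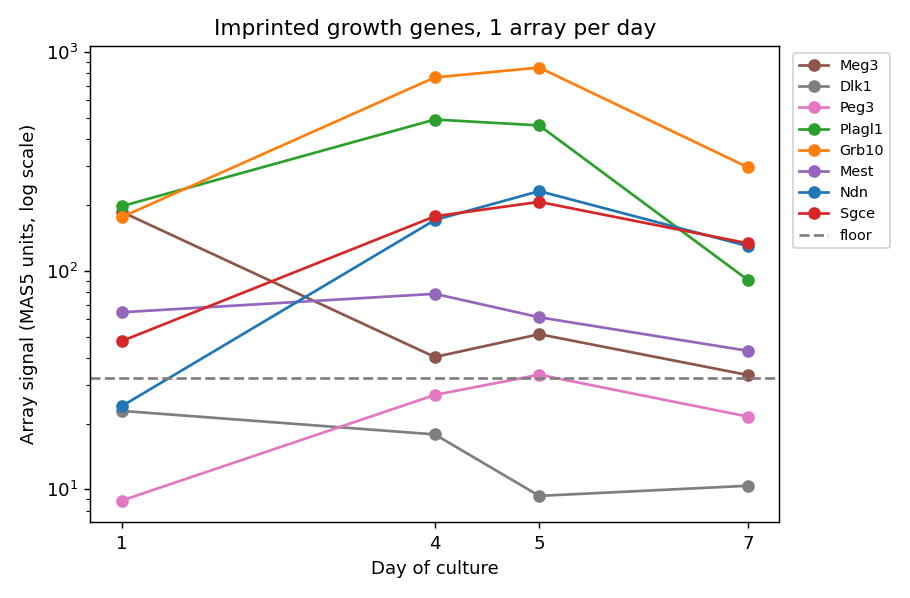
Signal of the probe set used for each gene (MAS5 units, log axis) by day of culture, with 1 array per day and the floor of 32.4 dashed; heights of different genes come from different probes and are not comparable. Ndn, Grb10 and Sgce peaked on day 5, Plagl1 on day 4 was at 491 and on day 7 at 90.5, and Dlk1 lay below the floor on all days.

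Ndn encodes necdin, a protein of the MAGE family that restrains the cell cycle and is best known from neurons. Its signal was 24.0 in fresh marrow, and then 170 on day 4, 231 on day 5 and 129 on day 7. Day 1 was thus below the floor, day 5 was the highest, and day 7 fell between day 1 and day 4. Ndn was at least 5.25-fold higher on day 4 than on day 1 and at least 3.99-fold higher on day 7 than on day 1. Only 1.98% of the 12438 genes had a larger difference on day 4 over day 1.

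Ndn has the most probe sets above the floor of these genes, 5 of its 8, so its pattern can be read more than once on the same arrays. Some of the 5 are of the kind that can match transcripts of other genes, but the one that represents the gene is not. On day 1 all 5 were below the floor, between 6.06 and 24.9. On day 4 they lay between 80.7 and 170, on day 5 between 151 and 233, and on day 7 between 71.5 and 129. All 5 were at least 2-fold higher on day 4 than on day 1; as day 1 lay below the floor, their log2 differences are lower bounds, between at least 1.32 and at least 2.39. From day 5 to day 7 all 5 were lower, by -0.84 to -1.16, and 3 of them passed 2-fold, although the one that represents the gene did not (-0.84). The other 3 probe sets were below the floor on every day.

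**Figure D2:**
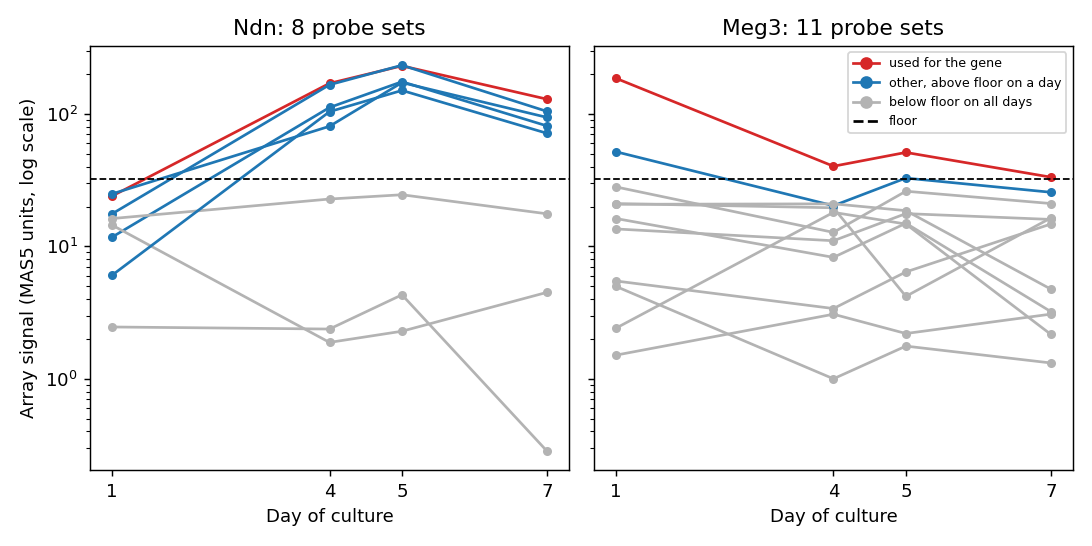
Signal of every probe set of Ndn (left) and Meg3 (right) by day (MAS5 units, log axis; 1 array per day; dashed line, floor). For Ndn 5 of 8 probe sets cross the floor between days 1 and 4, whereas for Meg3 9 of 11 stay below it on all days.

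Grb10 encodes an adaptor that binds the receptors for insulin and IGF1 and limits their signalling. Its signal was 176 in fresh marrow, and in culture 764 on day 4, 848 on day 5 and 296 on day 7. The 2 middle days were high and both outer days low, with day 7 above day 1. Grb10 was 4.35-fold higher on day 4 than on day 1, and 2.86-fold lower on day 7 than on day 5. The log2 difference of 0.15 between days 4 and 5 was smaller than the SD between probe sets. Its other 2 probe sets read 9.88 to 35.5 over the 4 days, with only 1 value above the floor, so the pattern of Grb10 rests on 1 probe set.

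Sgce encodes epsilon-sarcoglycan, a membrane protein of the dystrophin-associated complex. Fresh marrow gave 47.6, and the cultures 177 on day 4, 206 on day 5 and 133 on day 7. The order of days was the same as for Ndn, with the lowest value on day 1 and the highest on day 5. Sgce was 3.72-fold higher on day 4 than on day 1 and 2.80-fold higher on day 7 than on day 1. The later steps, 0.22 for day 5 over day 4 and -0.63 for day 7 over day 5, were under 2-fold. A second probe set was below the floor throughout, at 1.14 to 8.25.

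Plagl1 (also Zac1) encodes a zinc finger transcription factor that slows cell division and regulates other imprinted genes. Its signal went from 197 in fresh marrow to 491 on day 4, 461 on day 5 and 90.5 on day 7. Days 4 and 5 were high, and day 7 was the lowest of the 4. Plagl1 was 2.49-fold higher on day 4 than on day 1 and 5.10-fold lower on day 7 than on day 5. At that last step 99.8% of the 12438 genes had a larger (less negative) difference. Day 7 was also 2.18-fold below day 1 (log2 difference -1.12), which was -0.75 after quantile normalization and -0.98 after scaling to the same median. Only this probe set, whose name marks probes that can match transcripts of other genes, was above the floor. The other 2 reached at most 32.4 and were not above it, and without probe sets of that kind Plagl1 has no measured difference.

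Meg3 is a long noncoding RNA transcribed from the mother's copy next to Dlk1. The probe set that represents it read 186 in fresh marrow, then 40.3 on day 4, 51.2 on day 5 and 33.3 on day 7. Fresh marrow was the only high sample, and the 3 cultures lay close to the floor. Meg3 was 4.61-fold lower on day 4 than on day 1. Of its 11 probe sets 9 were below the floor on all 4 arrays. The second one above it read 51.8, 20.3, 32.8 and 25.6 on days 1, 4, 5 and 7, highest on day 1 too. Its day 4 value was below the floor, so it was at least 1.60-fold lower than on day 1. The probe set behind the 4.61-fold is of the kind that can match transcripts of other genes. Without such probe sets the difference of Meg3 is only this bound.

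Mest encodes a membrane-bound enzyme of the alpha/beta hydrolase fold and marks tissue growth in the fetus. It was measured by 1 probe set, at 64.5 in fresh marrow and at 78.4, 61.2 and 43.0 on days 4, 5 and 7. Every day was above the floor and no pair of days differed by 2-fold. The largest log2 difference of the 5 comparisons was -0.87, for day 7 over day 4, and quantile normalization gave -0.42 there. For day 7 over day 1 the difference of -0.59 changed to 0.02 after quantile normalization, so its direction depends on the scaling.

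Peg3 and Dlk1 were below the floor on nearly all arrays. Peg3 encodes a zinc finger protein made from the father's copy, and its brightest probe set read 8.89, 27.0, 33.5 and 21.5 on days 1, 4, 5 and 7. Only the day 5 value passed the floor, and the other 4 probe sets of Peg3 were below it on all days. Dlk1 encodes a membrane protein that holds back fat cell formation. Its 2 probe sets read between 0.725 and 22.9 over the 4 days, so only an upper bound, the floor, can be given for it. These readings depend on where the floor is set: at the 25th percentile of all values, the log2 difference of Peg3 was 1.60 for day 4 over day 1 and 1.27 for day 7 over day 1, and that of Dlk1 was -1.14 for day 7 over day 1. The members then counted 5 higher and 1 lower at day 4 compared with fresh marrow, and 3 higher and 3 lower at day 7. Of the 16851 genes that passed this lower floor, 1878 were higher and 1717 lower at day 4, compared with fresh marrow. At day 7, with the same reference, 2263 of these genes were higher and 2771 lower.

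Markers of other cell types were read beside these genes. The summed signal of 19 stromal and osteoblast markers was 3835, 39957, 52701 and 32441 on days 1, 4, 5 and 7. Of the 18 above the floor, 17 were higher on day 4 than on day 1 and 11 were lower on day 7 than on day 5. Postn was the marker of this list that stayed below the floor on all days. The sums of the 6 smooth muscle and pericyte markers had the same order of days, at 832, 4118, 4555 and 3690. However, only 2 of the 5 above the floor were higher on day 4 than on day 1. The median signal of this list was 20.4, 49.9, 40.6 and 26.8, highest on day 4 and not on day 5. Its median centred profile, used for the distances below, was also highest on day 4 (0.54, against 0.31 on day 5). Ndn, Sgce and Grb10 share with both sums the lowest value on day 1 and the highest on day 5. Distances were taken between a gene's log2 profile and the median profile of a list, both centred on their mean over the 4 days. Ndn was nearest to the stromal list (0.79), then to osteoclast (1.24), smooth muscle (1.56) and adipocyte markers (1.63). Its day 1 value was set to the floor, which enters its distances. Sgce was nearest to the smooth muscle list (1.04), then to osteoclast (1.10), adipocyte (1.13) and stromal markers (1.29). Grb10 was nearest to the adipocyte list (1.11), then to smooth muscle (1.29) and stromal markers (1.37). The part of any of these cells in the values was not tested. In bulk RNA, fewer cells of a type and less RNA per cell cannot be told apart. The summed signal of the 12 osteoclast markers was 16956, 29726, 49655 and 58021 over the same days, highest on day 7. Of these 12, 10 were higher and 1 was lower on day 7 than on day 1. None of the 8 genes had its highest value on day 7. Several lists were lower on the same step as Meg3. Stem and progenitor markers, whose median profile was nearest to that of Meg3 (distance 0.97), summed to 5321 on day 1 and 1326 on day 4. Of the 7 above the floor, 4 were lower on that step and 1 was higher. B cell markers (1.25) summed to 5039 and 1930, with 5 of 7 lower, and neutrophil markers (2.75) to 105349 and 66930, with 4 of 8 lower. The endothelial list lay at 1.54, but 0 of its 8 markers were lower on that step. Other lists with 0 lower also lay nearer to Meg3 than the neutrophil list did. They were the macrophage (2.45), smooth muscle (2.58), adipocyte (2.59) and megakaryocyte and platelet lists (2.71). Erythroid markers (2.13) summed to 18385 and 283, with Alas2 at 8302 and 2.19. Whether any of them has a part in the Meg3 value was not tested.

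**Figure D3:**
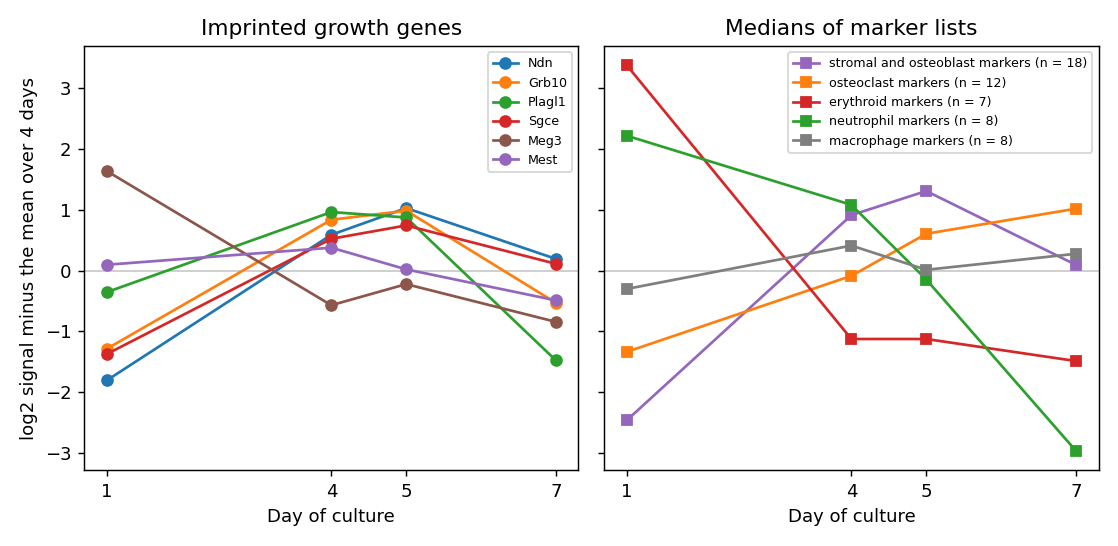
Profiles of 6 imprinted growth genes (left) and medians of marker lists (right), as log2 signal after the floor minus the mean over the 4 days, against day of culture; 1 array per day, n is the number of genes in a list. Ndn reads -1.81 on day 1 and 1.03 on day 5, the stromal median -2.46 and 1.31, and the osteoclast median is highest on day 7 at 1.02.

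The genes with the most similar profile were found among all named genes above the floor, by the Euclidean distance between log2 profiles centred on their mean over the 4 arrays. The 3 nearest to Ndn were Fhl2 (distance 0.04), Rarres1 (0.04) and Arhgef25 (0.09). Fhl2, a LIM domain protein gene, read 90.9, 487, 675 and 372 on days 1, 4, 5 and 7. For Sgce they were the inositol transporter gene Slc5a3 (0.09), Fam149a (0.09) and Irak1bp1 (0.11). For Grb10 they were Mcts2 (0.14), the prostaglandin receptor gene Ptgfr (0.15) and the zinc finger gene Sall2 (0.16). Mcts2 is itself imprinted, and it read 23.7, 127, 161 and 52.8. Plagl1 had no such close match: its nearest were Zfp469 (0.56), Zbtb20 (0.62) and the lubricin gene Prg4 (0.63). The nearest to Meg3 were Ube2h (0.19), Nup210 (0.20) and Zbp1 (0.20). Ndn, Arhgef25 (28.2), Mcts2 and Ptgfr (12.6) were below the floor on day 1, and Prg4 (25.4) on day 7, so these distances are partly set by the floor. With 4 points many genes lie close to any profile, and the list is a description.

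Imprinted genes lie in clusters, so the neighbours on the chromosome (by RefSeq order, GRCm38.p6) were read next. Next to Ndn, the imprinted genes Magel2, Mkrn3 and Peg12 were below the floor on all 4 days, at 1.22 to 23.0. Next to Sgce, Peg10 was below the floor on all days and Casd1 was at 1168, 1285, 1153 and 904. Ppp1r9a, which follows Peg10, was 2.52-fold higher on day 4 than on day 1. Col1a2, a collagen gene on the other side of Casd1, was 8.50-fold higher. Next to Meg3, Dlk1, Rian and Mirg were all below the floor on every day. Next to Grb10, Ddc read 38.2 on day 1 and 5.64 to 11.4 afterwards, and Cobl was below the floor throughout, while Fignl1 was 2.77-fold higher on day 5 than on day 4, a step on which Grb10 stayed under 2-fold. Next to Plagl1, Stx11 was 2.47-fold lower on day 4 than on day 1, where Plagl1 was higher, and 2.27-fold lower on day 7 than on day 5, where Plagl1 was lower too. Sf3b5, Ltv1 and Phactr2 were above the floor on all days and under 2-fold on each step from one day to the next. Next to Mest, Copg2 stayed at 444 to 499. The genes beside Peg3, Zim1 and Usp29, were below the floor on all days.

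A wider list of 66 other genes, imprinted in at least some mouse tissue, had 38 above the floor. Of these, 10 were higher and 3 lower on day 4 than on day 1 (median 0.36). From day 4 to day 5, 2 were higher and 1 was lower, and from day 5 to day 7, 3 were higher and 3 lower. Over all 12438 genes, 9.66% were higher and 8.33% lower on day 4 over day 1. These shares were 1.92% and 3.84% on day 5 over day 4, and 0.796% and 5.45% on day 7 over day 5. Among genes measured on both days, the largest differences on day 4 over day 1 were those of Tfpi2, a protease inhibitor gene (7.79-fold higher), Dcn, which encodes the matrix proteoglycan decorin (5.65-fold higher), Dhcr7, an enzyme gene of cholesterol synthesis (3.10-fold higher), and Pon3, a paraoxonase gene (2.66-fold higher). Lower bounds, which have no rank, were at least 3.92-fold for Mcts2, 3.00-fold for Asb4, 2.66-fold for both Slc38a4 and Cdkn1c, and 2.05-fold for Igf2. On day 7 over day 5, Calcr was 4.19-fold higher, Tfpi2 3.84-fold lower and Mcts2 3.04-fold lower. Slc38a4, an amino acid transporter gene, was at least 2.71-fold lower.

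Igf2, the fetal growth factor gene next to H19, had another course. It read 22.7, 66.6, 187 and 424 on days 1, 4, 5 and 7, a higher value on each later day. It was 6.36-fold higher on day 7 than on day 4. Its second probe set was below the floor on all 4 arrays. Calcr, which is imprinted in brain, was at least 12.3-fold higher on that comparison. Over all genes 2.95% were higher and 8.61% lower on day 7 than on day 4; among the 8 growth genes none was higher and 2 were lower, Plagl1 (5.42-fold) and Grb10 (2.58-fold). Gatm, the gene of the first enzyme of creatine synthesis, was 2.62-fold lower on day 4 than on day 1 and 2.71-fold higher on day 7 than on day 4.

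**Figure D4:**
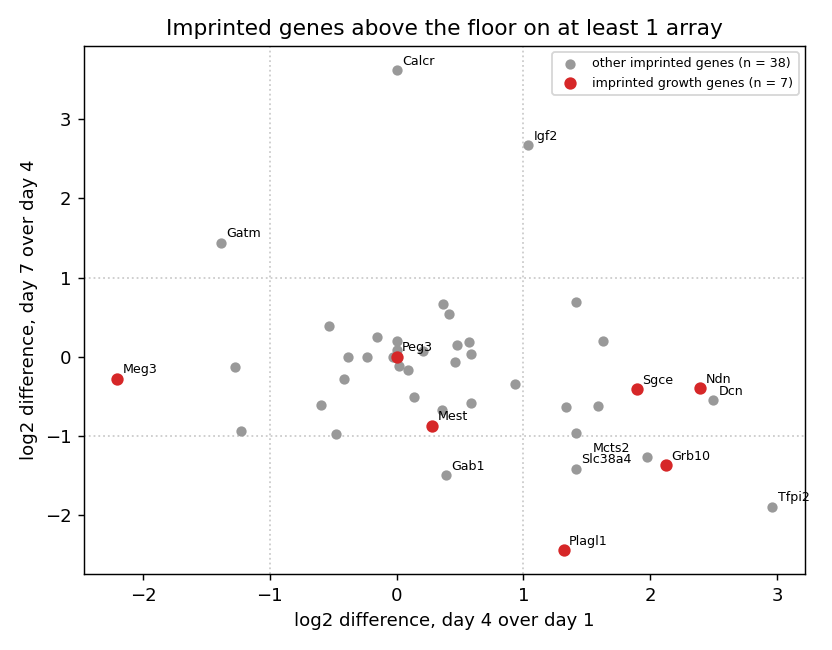
Log2 difference of day 4 over day 1 (x axis) against day 7 over day 4 (y axis) for 7 imprinted growth genes and 38 other imprinted genes above the floor on at least 1 array; 1 point per gene, dotted lines at 2-fold, and the day 4 array enters both axes. Plagl1 and Grb10 lie at the lower right with Tfpi2 and Mcts2, and Igf2 and Calcr lie at the top.

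Genes that act with the members were read from lists by role. Of 12 genes of insulin and IGF signalling, the pathway that Grb10 limits, with its ligands, receptors, substrates and adaptors, 11 were above the floor. On day 4 over day 1, 4 were higher (Irs1, Grb14, Igf1 and Igf2, none of them a receptor gene) and 1 was lower. Irs1, the insulin receptor substrate gene, was 10.7-fold higher, Grb14, the adaptor gene most like Grb10, at least 13.5-fold higher, and the growth factor gene Igf1 read 837 and 4975. The receptor gene Igf1r was 3.02-fold lower. On day 7 over day 5, Irs1 was 3.08-fold and Grb14 2.73-fold lower, beside Grb10 at 2.86-fold lower. Irs1 and Grb14 were the 2 of the 11 that were lower, and 1 was higher, Igf2 at 2.27-fold. Over all genes 5.45% were lower and 0.796% higher on this step. The receptor genes Insr and Igf1r had their highest values, 665 and 798, on day 1 and their lowest, 205 and 123, on day 7.

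Of the MAGE family, to which necdin belongs, 5 of the 6 listed genes with a probe set were above the floor. Of these 5, 4 were higher on day 4 than on day 1 with none lower. Maged1 was 7.62-fold and Maged2 6.60-fold higher. Magee1 (2.61-fold) and Mageh1 (at least 2.12-fold) followed, and the log2 difference of Nsmce3 was 0.26. On day 7 over day 5, Magee1 was 2.11-fold lower and none was higher; after either other scaling of the arrays 0 of the 5 passed 2-fold at this step. Of 12 genes of the sarcoglycan and dystroglycan complex, 5 were above the floor and 1, Sspn, was higher on day 4 than on day 1 (at least 2.71-fold). Plagl2, the relative of Plagl1, read 409, 365, 334 and 205, with its highest value on day 1.

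Between the endpoint and fresh marrow, 2 of the 8 genes were at least 2-fold higher on day 7, Ndn and Sgce, and 2 lower, Meg3 (5.57-fold) and Plagl1. Over all genes 12.2% were higher and 15.6% lower. Grb10 was 1.69-fold higher, under the threshold. These splits of all genes depend on the scaling of the arrays. For day 7 over day 1, 1516 genes were higher and 1939 lower as deposited, 2000 and 1559 after quantile normalization, and 1891 and 1673 after scaling to the same median. For day 7 over day 5 the counts were 99 and 678, 195 and 423, and 183 and 491 in the same order, and for day 7 over day 4 they were 367 and 1071, 570 and 733, and 548 and 824. The median of all genes moved from -0.09 to 0.01 and 0.03 for day 7 over day 5 and from 0 to 0.14 and 0.11 for day 7 over day 1. Relative to any of these medians Plagl1 and Grb10 stayed lower on day 7 than on day 5, at -2.01 and -1.32 after quantile normalization.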

How the data were processed

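Biotinylated cRNA from 250 ng of total RNA was hybridised to Affymetrix mouse arrays, per the labels' protocols. The authors deposited 1 linear intensity for each of 45101 probe sets; GCOS 1.4 and MAS5 are the tools in the submitters' processing notes. To which target arrays were scaled is not given in the sources used. Neither detection calls nor single probes were used. Groups are the days in the labels. Without the 64 control probe sets, signals were floored at the median of all other values, and log2 differences were taken for 5 comparisons. Probe sets with several (932) or no (9160) gene symbols were not named, and 34945 had 1 symbol. All 9 symbols were in RefSeq's gene table, used for names and gene order; promoter windows came from a separate RefSeq table. How precise a value can be is limited by the number of arrays, and there is no test. The members and lists were chosen with earlier results of these data known. All members are named; the rule added the 3 nearest profiles of each member that differed by 2-fold, and up to 4 genes of a list; some genes of related function or position, and values of genes outside the rule, were named after their values were seen. As alternatives, the floor was set at the 25th and at the 60th percentile or dropped with 16 added, and arrays were quantile normalized or brought to 1 median. Genes were also taken as the mean of their probe sets or after leaving out probe sets that can match transcripts of other genes. The probe sets left out have names ending in _s_at or _x_at. Those ending in _a_at, as used for Grb10 and Sgce, stayed in. Counting was tested on simulated data. Calculations used Python 3.11.15, numpy 2.4.6, pandas 2.3.3 and matplotlib 3.10.9.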

Additional observations from a re-analysis of the deposited data

How the results depend on the processing

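No paired analysis was possible because each group held 1 array. Over all alternatives, 28 of 42 counts of members at 2-fold that were not 0 in the main setting stayed within 1.5 times it, the 28 that were 0 stayed 0, and no called difference changed sign, although Plagl1 was at 0 where its probe set was left out. Of 91 recomputed values of called members, 68 stayed past 2-fold in the same direction. Taking the mean over the probe sets of a gene gave 1 member higher on day 4 over day 1 (4 in the main setting), 0 lower on that comparison (1), 0 higher (2) and 0 lower (2) on day 7 over day 1, 0 lower on day 7 over day 4 (2) and 0 lower on day 7 over day 5 (2). By construction this mean counts probe sets below the floor with the others. Leaving out probe sets that can match transcripts of other genes gave 0 lower on day 4 and on day 7, each over day 1. It gave 1 lower on day 7 over day 4 and 1 lower on day 7 over day 5. Plagl1 and Meg3 rest on such probe sets. A floor at the 60th percentile gave 0 higher on day 7 over day 1. No floor with 16 added, quantile normalization and scaling to the same median each gave 1 lower on day 7 over day 1. Across the 7 alternatives the log2 difference of Ndn on day 4 over day 1 ranged from 1.19 to 2.83, that of Grb10 from 0.71 to 2.22, that of Sgce from 0.95 to 2.07, that of Plagl1 from 0 to 1.39 and that of Meg3 from -2.23 to -0.26. Signals near the floor carry the least information, and the depth of arrays is not a count.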

Other observations

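Imprints are kept by a set of enzymes and DNA-binding proteins, of which 13 of 15 listed genes were above the floor. Dnmt3a, a methyltransferase gene that sets new methylation, was 4.56-fold higher on day 4 than on day 1 and read 772, 3524, 2128 and 1826 on days 1, 4, 5 and 7. No other gene of this list measured on both days passed 2-fold on that comparison; Tet1 read 57.8 and 14.5, below the floor on day 4, and was at least 1.78-fold lower. Dnmt1, the maintenance methyltransferase gene, read 1949, 1044, 1663 and 1705, lowest on day 4. Uhrf1, which guides Dnmt1 to newly copied DNA, was 2.51-fold higher on day 5 than on day 4 and had its highest value on day 5. The zinc finger gene Zfp445 and the insulator protein gene Ctcf were highest on day 1, at 2031 and 2164, and lowest on day 7, at 913 and 1031. No methylation was measured in these samples.

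Dlk1 is a relative of the Notch ligands, and the receptors were read although Dlk1 itself was below the floor. Notch1 read 1525, 732, 381 and 220 on days 1, 4, 5 and 7, lower on each later day, and was 6.93-fold lower on day 7 than on day 1. Notch2 read 2147, 1536, 850 and 775. Notch3, known from pericytes and smooth muscle, had the opposite start, with 44.2, 108, 221 and 139, and was 2.44-fold higher on day 4 than on day 1.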
